A study of Populus ussuriensis with 18 samples.

Results

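The step examined here is the late one of a course of water stress: roots of Populus ussuriensis seedlings after 120 h in polyethylene glycol (PEG 120 h, 3 libraries) against roots after 48 h in it (PEG 48 h, 3 libraries). These are 6 of the 18 root RNA-seq libraries of the series, which also holds 3 libraries each at 0, 6, 12 and 24 h. Every seedling was wild type, raised in tissue culture and 3 weeks old at the start, and was then moved to liquid medium with 6% PEG 6000. Each library was made from the pooled roots of at least 6 seedlings, so the spread between libraries is one between pools. Both 120 h and 48 h were whole days after the start, neither had seedlings kept in liquid medium without PEG beside it, and 5 days in the flask cannot be told apart from 5 days of PEG. No 0 h library enters the fold changes between 120 h and 48 h.

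PEG of high molecular weight lowers the water potential of the medium without entering the cells, so that roots meet a shortage of water. Roots under such stress stiffen and remodel their cell walls. Phenylalanine from the shikimate pathway is turned into monolignols by the phenylpropanoid enzymes, class III peroxidases oxidise monolignols in the wall, dirigent proteins steer the coupling of the radicals, and proline-rich proteins and extensins form the protein scaffold of the wall. Abscisic acid and its kinases, late embryogenesis abundant (LEA) proteins and enzymes that remove reactive oxygen belong to the same response, and acclimation is the later phase in which much of the first response is wound down.

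The values are FPKM, which divides the fragments of a transcript by its length and by how many fragments mapped in its library, and all levels below are on this scale. The FPKM of a library summed to 1116014 to 1148551 at 120 h and to 1108476 to 1126143 at 48 h, and 996 to 1013 transcripts at 120 h and 947 to 1016 at 48 h were listed at 0. Fragment counts were not used here, and the lowest value above 0 among transcripts of about 1 kb was 0.02 to 0.08 FPKM in the 120 h libraries and 0.08 to 0.10 FPKM in the 48 h libraries. Where reads are shared between isoforms such a value can be worth less than 1 fragment, so it does not measure depth. On the log2(FPKM + 1) scale, 120 h replicate 1 correlated with the other libraries of its time at 0.968 each, and those with each other at 0.9782. Replicate 3 of 48 h correlated with its partners at 0.9606 and 0.9604, and they with each other at 0.9785. These 2 libraries therefore stood apart from their replicates, and results that rest on them are given without them as well. The median replicate SD of transcripts of 400 bp or longer was 0.11 at 120 h and 0.104 at 48 h, against 0.069, 0.085, 0.076 and 0.109 at 0, 6, 12 and 24 h. A test that pools the spread of all 18 libraries thus leans on times that were partly tighter than the pair compared. The 22 photosystem and chlorophyll-binding transcripts used as markers of green tissue, none of them at 0 in any of the 6 libraries, summed to 4029 to 5208 FPKM at 120 h and to 3678 to 4156 FPKM at 48 h. The groups overlapped in this sum, and its part in the results was not tested. High-affinity nitrate transporter 2.1, the marker of absorbing root cells, was present in all 6 libraries. Each of its transcripts was lowest in 48 h replicate 3, well below the other libraries of that time, and the part of this in the results was not tested.

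More transcripts fell than rose between 48 h and 120 h, and most changes were small. A transcript was called a DEG when its Benjamini-Hochberg adjusted p, from limma over the 12080 transcripts that reached 1 FPKM in 3 or more of the 18 libraries, was under 0.05 and its log2 fold change, 120 h over 48 h on the log2(FPKM + 1) scale, was at least 1 in size. By this rule 23 transcripts (0.190% of those tested) were higher at 120 h and 128 (1.06%) were lower, 151 (1.25%) in all. With the same adjusted p and no fold minimum, which is called passing the test at any fold below, 411 transcripts (3.40%) rose and 798 (6.61%) fell, 1209 in all. Since 1 is added to each value, the change of low transcripts is understated. In bulk RNA, fewer cells of a type and less RNA per cell cannot be told apart. The median log2 fold change of all transcripts was -0.01, and 90% of the values lay between -0.60 and 0.37. All 120 h libraries lay above all 48 h libraries in 1159 transcripts (9.59%) and below them in 1558 (12.9%). Among the DEGs the groups did not overlap in 22 of the 23 that rose and in 107 of the 128 that fell. In 20 of the falls 48 h replicates 1 and 2 lay above the 120 h range and 48 h replicate 3 lay within it. The counts depend on the spread used. A fit of the 6 libraries alone, with 4 residual degrees of freedom in place of 12, gave 8 DEGs higher and 39 lower, and 26 and 93 passed at any fold. Without 48 h replicate 3 the counts were 26 higher and 195 lower, and without that library and 120 h replicate 1 they were 41 and 249. Without 120 h replicate 3 there were 14 higher and 94 lower. Shifting each library to a common median moved the split at any fold to 579 higher and 694 lower.

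**Figure D1:**
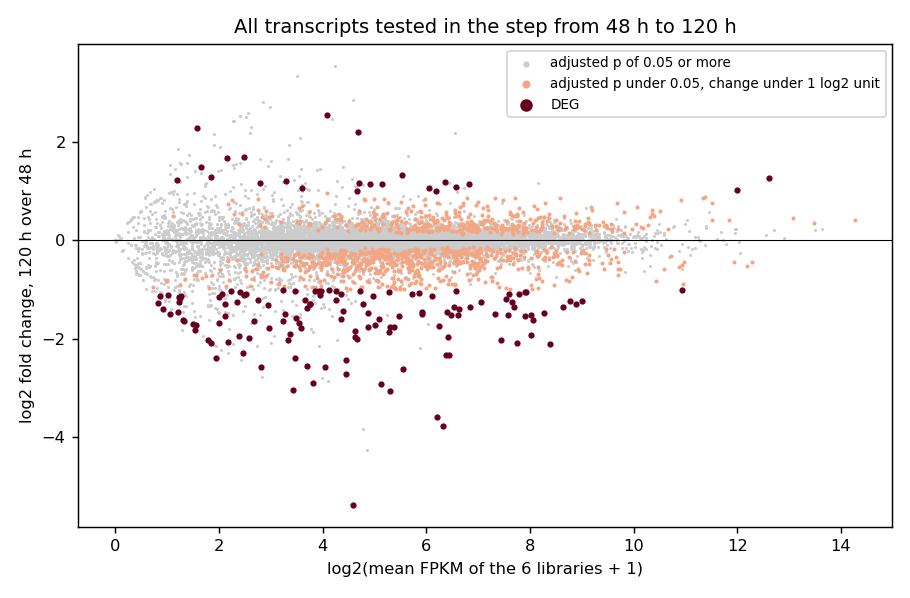
Log2 fold change of 120 h over 48 h (vertical axis) against the log2 mean FPKM of the 6 libraries plus 1 (horizontal axis) for the 12080 transcripts tested, each a point. The 128 DEGs below -1 outnumber the 23 above 1, and most transcripts that passed the test moved by less than 1 log2 unit.

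Names were taken from the annotation in the study's supplementary tables, which covers 1013 of the 12994 transcripts listed and names 702 of them. Of the DEGs, 5 that rose and 21 that fell have a protein name. Of the 697 named transcripts tested, 41 rose and 113 fell at any fold, with a median log2 fold change of -0.06. The counts of each list below are to be read beside these, and beside the 3.40% that rose and 6.61% that fell of all transcripts. Several of these tables are lists of transcripts with altered levels in PEG, so named transcripts are not a random draw of the roots' RNA. Where several transcripts carry one name, their reads may have been shared between near-identical isoforms, and their values are not independent. Of the 25 DEGs named by the rule for named genes, 9 were also DEGs in the fit of the 6 libraries alone: dirigent protein 23, peroxidase 4, cationic peroxidase 1, the 33 kDa extensin-related protein, an aspartyl protease, 6-phosphogluconolactonase 4, a basic 7S globulin and both ACC oxidases. Named members that are not DEGs were picked after their values were seen.

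The lignin branch of phenylpropanoid metabolism was lower at 120 h along most of its length. All 22 transcripts of the monolignol and dirigent list had a negative log2 fold change, with a median of -0.39 against -0.01 over all transcripts. In 17 of the 22 every 120 h library lay below every 48 h library. None rose, 16 fell at any fold and 2 of these were DEGs. Of all transcripts, 12.9% had every 120 h library below every 48 h library and 6.61% fell at any fold. The list was drawn from the study's tables, several of which hold transcripts altered in PEG, and it had been raised earlier. Its median log2 change over 0 h was 1.51, 1.56 and 1.11 at 6, 12 and 24 h. Of all transcripts that were DEGs higher than 0 h at 1 or more of these times, 9.07% were DEGs that fell in the step. In the fit of the 6 libraries alone, 4 of the 22 fell at any fold. Without 48 h replicate 3 the count was 17 and without both libraries that stood apart it was 18.

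The steepest fall among named DEGs with reads at both times was that of dirigent protein 23 (f3p60_734_33370). It had 8.29, 4.77 and 4.70 FPKM at 120 h, against 33.4, 31.6 and 42.8 FPKM at 48 h. The 48 h libraries were all well above the 120 h ones, and the log2 fold change was -2.44 (standard error, SE, 0.19, with a limma adjusted p = 1.8e-06).

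At the entry of the pathway, phenylalanine ammonia-lyase (f2p54_2528_20310), which turns phenylalanine into cinnamate, had 250.0, 194.7 and 194.4 FPKM at 120 h, against 349.0, 373.5 and 360.4 FPKM at 48 h. Its log2 fold change was -0.77 (adjusted p = 3.9e-05), and the groups lay far apart. Another 2 transcripts of this enzyme, named G2B, fell by 0.27 and 0.23 on the log2 scale. The next enzyme, cinnamate 4-hydroxylase, is listed as trans-cinnamate 4-monooxygenase (f2p60_1840_22893) and as CYP73A100 (f2p60_956_11446). The first had 190.3, 177.5 and 182.2 FPKM at 120 h, against 261.8, 254.4 and 300.1 FPKM at 48 h, with a log2 fold change of -0.56 (adjusted p = 1.5e-05). CYP73A100 had 17.1, 12.2 and 13.5 FPKM at 120 h, against 28.4, 27.7 and 58.7 FPKM at 48 h. Its 48 h replicate 3 stood far above the other 48 h libraries, and the log2 fold change was -1.29 (SE 0.20, adjusted p = 0.00093) with that library and -0.94 (adjusted p = 1.1e-05) without it.

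Further down the route, 4-coumarate-CoA ligase 1, which activates coumarate for the branch to monolignols, averaged 77.4 FPKM at 120 h against 106.6 FPKM at 48 h in transcript f2p60_2079_21713 and 48.8 against 67.8 FPKM in f2p60_2057_4103. Both had a log2 fold change of -0.46. For f2p60_2079_21713 the study's printed fold changes over 0 h fall far more steeply from 48 h to 120 h. Cytochrome P450 84A1 (f2p60_1935_4546), the hydroxylase that leads to sinapyl units, had 205.2, 246.6 and 244.1 FPKM at 120 h, against 353.8, 353.9 and 307.8 FPKM at 48 h, giving a log2 fold change of -0.55 (adjusted p = 0.00029). The more abundant transcript of the same name, f10p60_2124_21569, averaged 801.4 ± 76.9 FPKM at 120 h and 833.4 ± 23.2 FPKM at 48 h (SD, n = 3 each) and did not pass the test, with a log2 fold change of -0.06. Cinnamoyl-CoA reductase 1 (f2p60_1466_7341), the first enzyme committed to monolignols, had 267.7, 270.6 and 267.3 FPKM at 120 h, against 369.8, 357.6 and 320.6 FPKM at 48 h. Its log2 fold change was -0.38 (adjusted p = 0.0005), and its groups did not overlap. Caffeic acid 3-O-methyltransferase 1 (f3p60_1514_25096), which methylates the ring, averaged 654.0 FPKM at 120 h against 863.5 FPKM at 48 h, with a log2 fold change of -0.39 (adjusted p = 0.0085). MYB58, named for an Arabidopsis factor that activates lignin genes, averaged 5.92 FPKM at 120 h and 9.33 FPKM at 48 h, giving a log2 fold change of -0.55 (adjusted p = 0.01).

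The shikimate list, which supplies phenylalanine, had 4 of 9 members that fell at any fold and none that rose or was a DEG, with a median of -0.40. DAHP synthase, listed as phospho-2-dehydro-3-deoxyheptonate aldolase 1, is the enzyme that opens the pathway. Its transcript f2p60_1596_24598 had 60.7, 58.4 and 62.1 FPKM at 120 h, against 83.6, 74.8 and 81.4 FPKM at 48 h, giving a log2 fold change of -0.40 (adjusted p = 0.00015). In the fit of the 6 libraries alone, none of the 9 passed at any fold.

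**Figure D2:**
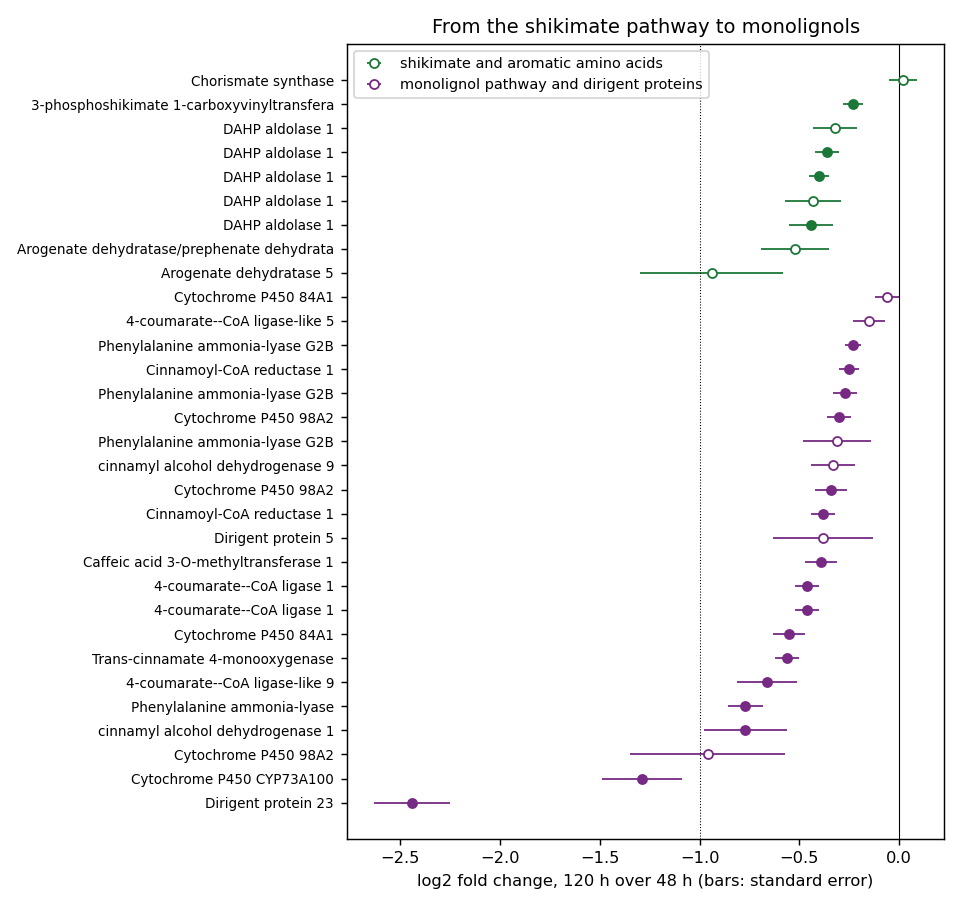
Log2 fold change of 120 h over 48 h with its standard error for the 9 shikimate (green) and 22 monolignol and dirigent (purple) transcripts tested. Filled points passed the limma test at any fold, the dotted line marks -1, and all but chorismate synthase lie below 0.

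Class III peroxidases, secreted enzymes that act on monolignols and wall proteins, had 4 of their 29 members among the DEGs that fell. Of 29 tested, 9 fell at any fold, 4 of them DEGs, none rose, and the median was -0.31. In 9 the 120 h libraries all lay below the 48 h ones and in 1 all above. Over all transcripts these shares were 12.9% and 9.59%, and 6.61% fell at any fold. Without 48 h replicate 3, 8 fell and 3 rose, with a median of -0.19. The 3 were peroxidases 3, 9 and 64, in each of which 48 h replicate 3 was the highest of the 6 libraries, and with all libraries they did not pass the test. Peroxidase 4 (f2p59_1311_26810), PER4 among the qRT-PCR transcripts, had 15.2, 12.2 and 13.6 FPKM at 120 h, against 38.2, 39.8 and 69.3 FPKM at 48 h. The log2 fold change was -1.72 (SE 0.17, adjusted p = 1.8e-05). Peroxidase 15 (f2p60_1233_9008) had 46.6, 42.2 and 40.6 FPKM at 120 h, against 99.2, 102.6 and 169.5 FPKM at 48 h, with a log2 fold change of -1.46 (adjusted p = 1.5e-05). In both, 48 h replicate 3 was the highest library, and without it the log2 fold changes were -1.45 and -1.21.

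Cationic peroxidase 1 (f2p41_1289_8520) was low throughout, with 1.73, 0.77 and 1.2 FPKM at 120 h, against 4.69, 5.52 and 6.06 FPKM at 48 h. Its log2 fold change was -1.54 (adjusted p = 0.00012) and understates the ratio of means of 0.227, since 1 is added to each value. Peroxidase 5 (f4p60_1269_8729) had 1.40, 0.86 and 1.69 FPKM at 120 h, against 3.30, 2.25 and 8.35 FPKM at 48 h. Its call depended on 48 h replicate 3, with a log2 fold change of -1.15 (adjusted p = 0.012) with that library and -0.71 (adjusted p = 0.0029) without it, and it was lost without 120 h replicate 2 (adjusted p = 0.061). Peroxidase 21 (f21p60_1261_27184), an abundant one, averaged 318.2 FPKM at 120 h and 432.9 FPKM at 48 h, giving a log2 fold change of -0.44 (adjusted p = 6.5e-06).

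Some structural proteins of the wall fell. Of 18 proline-rich, extensin, arabinogalactan and glycine-rich transcripts, 6 fell at any fold, 4 of them DEGs, and 1 rose. The median was -0.34, and without 48 h replicate 3 it was -0.08, with 5 falls, 3 of them DEGs. In the fit of the 6 libraries alone, 1 of the 18 fell. The proline-rich 33 kDa extensin-related protein (f9p60_914_11928) had 162.5, 121.9 and 117.4 FPKM at 120 h, against 383.5, 407.3 and 363.1 FPKM at 48 h. The groups lay far apart, and the log2 fold change was -1.53 (SE 0.09, adjusted p = 2.2e-07). Repetitive proline-rich cell wall protein 2, which is cross-linked into the wall, was listed in 2 transcripts of nearly the same length. Transcript f2p60_1006_30003 had 127.3, 128.1 and 119.9 FPKM at 120 h, against 373.0, 270.3 and 579.4 FPKM at 48 h, with a log2 fold change of -1.63 (adjusted p = 0.00023). Transcript f3p60_1008_29997 had 174.6, 65.7 and 70.7 FPKM at 120 h, against 189.2, 308.6 and 329.0 FPKM at 48 h. Here 120 h replicate 1 came close to the lowest 48 h library, and the log2 fold change of -1.51 (adjusted p = 0.035) lost its call without 120 h replicate 2 or 3 (adjusted p = 0.13 each) and without 48 h replicate 2 or 3 (adjusted p = 0.11 and 0.096).

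Extensin-3 (f2p60_1680_23978), one of the most abundant wall proteins here, had 1704, 1300.2 and 1599 FPKM at 120 h, against 2361, 2401 and 1934 FPKM at 48 h, giving a log2 fold change of -0.54 (adjusted p = 0.013). The 14 kDa proline-rich protein DC2.15 (f2p46_752_33126) was listed at 0 in all 120 h libraries and in 48 h replicate 3, and had 6.09 and 5.39 FPKM in 48 h replicates 1 and 2, so no fold is given. It lost its call when any 120 h library was left out (adjusted p = 0.058, 0.089 and 0.093) and without 48 h replicate 1 or 2 (adjusted p = 0.15 each). Apyrase 2 (f4p60_1598_24509), an ATP-splitting enzyme outside the lists and picked after its values were seen, had the same pattern, with 7.46 and 8.13 FPKM in 48 h replicates 1 and 2 and 0 in the other 4 libraries. The glycine-rich family protein that rose (f2p60_628_14757) averaged 234.0 FPKM at 120 h and 153.5 FPKM at 48 h, giving a log2 fold change of 0.58 (adjusted p = 0.01).

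Lipid-transfer proteins, small secreted carriers of wax and cutin precursors, were the list with the highest share of falls. Of 7 members 6 fell at any fold and 1 was a DEG, with a median of -0.72. Their summed level was 5715 to 6146 FPKM at 120 h, against 8299.9 to 9090.2 FPKM at 48 h. The DEG, f2p60_668_14287, had 150.3, 341.7 and 323.5 FPKM at 120 h, against 617.1, 553.3 and 641.4 FPKM at 48 h, giving a log2 fold change of -1.24 (adjusted p = 0.0029). Its 120 h replicate 1 was the lowest library, and without it the value was -0.86 (adjusted p = 0.00013). The most abundant member, f3p60_672_34222, had 4062, 4392 and 4203 FPKM at 120 h, against 5508, 5592 and 6061 FPKM at 48 h, with a log2 fold change of -0.44 (adjusted p = 0.00073). DIR1, named for an Arabidopsis carrier of a systemic defence signal (f2p60_631_34832), averaged 93.4 ± 14.8 FPKM at 120 h and 161.6 ± 11.8 FPKM at 48 h (SD, n = 3 each), giving a log2 fold change of -0.79 (adjusted p = 0.00014). In the fit of the 6 libraries alone, 2 of the 7 fell.

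Outside the lists, 4 other named DEGs fell. The plastid enzyme 6-phosphogluconolactonase 4 (f8p60_1239_9513), of the oxidative pentose phosphate pathway, had 80.5, 73.8 and 78.5 FPKM at 120 h, against 184.1, 174.2 and 199.8 FPKM at 48 h. Its log2 fold change was -1.25 (SE 0.05, adjusted p = 5.7e-09). Basic 7S globulin (f2p40_1649_24163), an extracellular protein related to aspartic proteases, had 356.4, 268.1 and 292.4 FPKM at 120 h, against 684.8, 656.4 and 806.3 FPKM at 48 h, with a log2 fold change of -1.23 (adjusted p = 6.6e-07). The aspartyl protease At5g10770 (f2p35_1879_22663) averaged 6.26 ± 0.722 FPKM at 120 h and 17.8 ± 2.69 FPKM at 48 h (SD, n = 3 each), giving a log2 fold change of -1.37 (adjusted p = 1.8e-05). In these 3 no 120 h library reached the 48 h range, as the rule for named genes required of DEGs outside the lists. A cysteine-rich transmembrane protein (f5p60_588_15215) had 1.74, 2.53 and 2.50 FPKM at 120 h, against 3.53, 4.61 and 12.4 FPKM at 48 h, and its call (adjusted p = 0.04) was lost without 48 h replicate 3 (adjusted p = 0.09) and without any one 120 h library (adjusted p = 0.094, 0.079 and 0.085).

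Kinases and zinc fingers of the stress response that passed the test were lower at 120 h. In several, 48 h replicate 3 lay close to the 120 h libraries and the calls rested on 48 h replicates 1 and 2. MAPKKK17 and MAPKKK18 head a kinase cascade that abscisic acid switches on in Arabidopsis. All 4 MAPKKK transcripts had a negative log2 fold change, 3 fell at any fold and 2 were DEGs. The summed level of the 4 was 9.6, 8.4 and 9.2 FPKM at 120 h, against 22.2, 21.3 and 17.0 FPKM at 48 h, so the groups did not overlap. Transcript f3p60_1424_25791, named MAPKKK17, had 2.46, 1.73 and 1.70 FPKM at 120 h, against 7.11, 6.95 and 2.37 FPKM at 48 h, and 48 h replicate 3 fell within the 120 h range. Its log2 fold change was -1.03 (adjusted p = 0.015) and -1.45 (adjusted p = 2.2e-06) without that library, and the call was lost without 48 h replicate 1 or 2 (adjusted p = 0.071 and 0.072) and without 120 h replicate 2 or 3 (adjusted p = 0.057 and 0.062). Transcript f4p60_1325_8326, named MAPKKK17 in the annotation used here and MAPKKK18 elsewhere in the study, showed the same order, with 0.52, 0.27 and 0.27 FPKM at 120 h, against 3.64, 2.88 and 0.51 FPKM at 48 h, and an adjusted p of 0.038. It too lost its call without 48 h replicate 1 or 2 (adjusted p = 0.16 and 0.14) and without 120 h replicate 2 or 3 (adjusted p = 0.1 and 0.11). The study's printed fold changes over 0 h for this ID run the other way, higher at 120 h than at 48 h. MAPKKK18 (f5p60_1300_26955) did not overlap, with 3.42, 5.28 and 5.52 FPKM at 120 h, against 7.77, 8.09 and 12.2 FPKM at 48 h, giving a log2 fold change of -0.84 (adjusted p = 0.0024).

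ZAT10 and ZAT11, zinc finger repressors that respond early to drought and oxidative stress, had 6 negative values in 6 transcripts, 4 of which fell at any fold and 1 of which was a DEG. ZAT11 (f2p24_969_11433) had 4.29, 3.67 and 2.56 FPKM at 120 h, against 11.1, 10.7 and 18.1 FPKM at 48 h, giving a log2 fold change of -1.65 (adjusted p = 8.8e-06). JUNGBRUNNEN 1 (f2p60_1234_9281), a NAC factor that delays senescence in Arabidopsis, was the only one of 10 NAC transcripts that passed the test at any fold. It had 7.53, 12.9 and 12.8 FPKM at 120 h, against 30.2, 33.3 and 12.1 FPKM at 48 h. Its adjusted p of 0.029 became 0.085 without 120 h replicate 1, 0.11 without 48 h replicate 1, 0.12 without 48 h replicate 2 and 2.8e-05 without 48 h replicate 3, which lay in the 120 h range. Of 17 ethylene-responsive and DREB factors, 4 fell and 1 rose at any fold with no DEG, whereas 11 fell without 48 h replicate 3 and 12 without both libraries that stood apart. ERF1A (f3p60_1131_9867) averaged 29.2 FPKM at 120 h and 59.4 FPKM at 48 h, giving a log2 fold change of -0.96 (adjusted p = 0.00078), and RAP2-3 (f3p60_1128_28605), a factor of the low-oxygen response, averaged 156.2 FPKM at 120 h and 117.4 FPKM at 48 h, giving a log2 fold change of 0.41 (adjusted p = 0.00061). WRKY factors had 2 of 10 that fell, both named WRKY40, and MYB and PHR1-like factors 2 of 9, and no AUX/IAA or homeobox transcript passed. These are small counts, and 113 of 697 named transcripts fell at any fold. Without 48 h replicate 3, 4 WRKY transcripts fell and 2 of the 7 AUX/IAA transcripts rose. With all libraries, another transcript named WRKY40 (f2p53_770_33148) had a log2 fold change of 0.63 and did not pass (limma adjusted p = 0.44).

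Calcium sensors moved both ways, with 2 of 14 falling and 3 rising at any fold. CML38 (f2p30_1011_11035), a calmodulin-like protein, had 15.9, 6.31 and 5.52 FPKM at 120 h, against 21.6, 22.9 and 14.2 FPKM at 48 h. Replicate 1 of 120 h and replicate 3 of 48 h overlapped, the log2 fold change was -1.12 (adjusted p = 0.018), and the call was lost without 120 h replicate 2 or 3 (adjusted p = 0.078 and 0.084) and without 48 h replicate 1 or 2 (adjusted p = 0.063 and 0.07). CML10 (f3p60_616_35021) rose, with a mean of 73.3 FPKM at 120 h against 51.8 FPKM at 48 h and a log2 fold change of 0.49 (adjusted p = 0.0042). Of 10 transcripts of abscisic acid synthesis, breakdown and signalling, only the receptor PYL6 (f2p60_1249_27389) passed, with a mean of 53.2 FPKM at 120 h against 79.2 FPKM at 48 h and a log2 fold change of -0.54 (adjusted p = 0.0042).

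**Figure D3:**
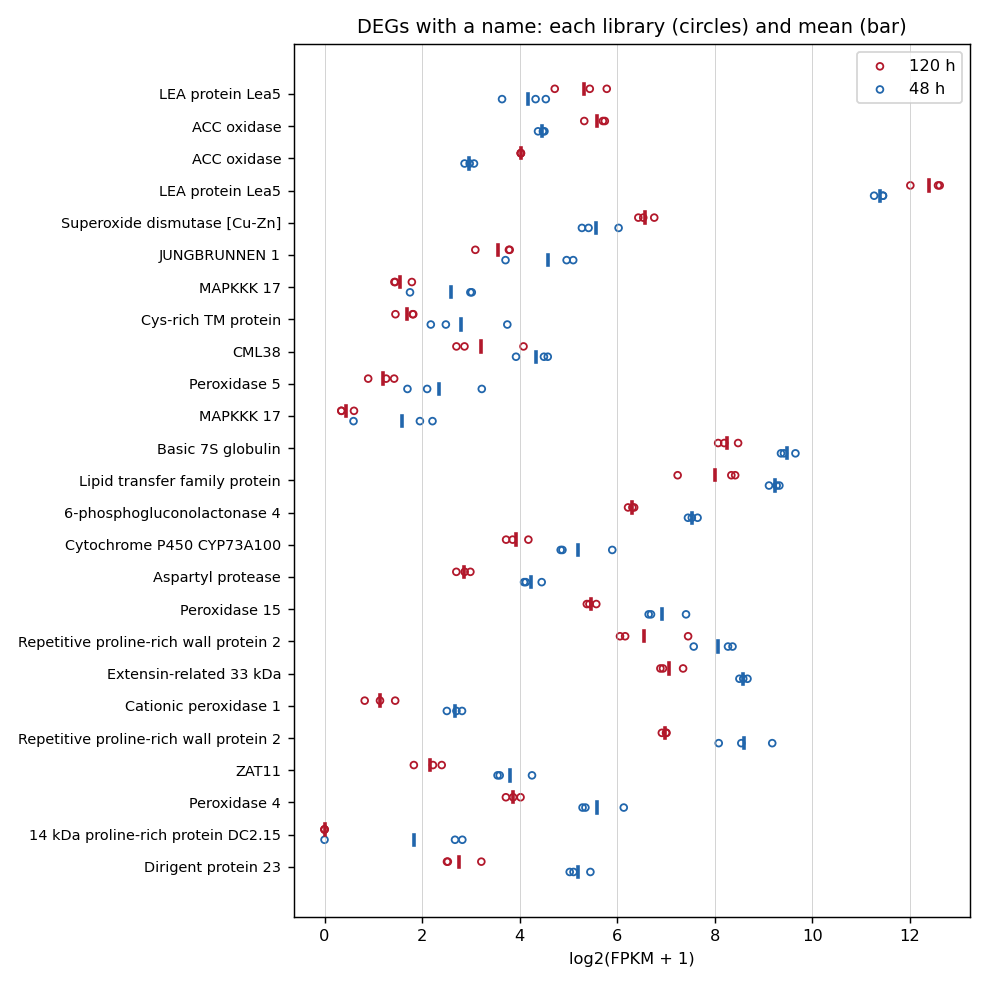
Log2(FPKM + 1) of each library (circles) with the group mean (bars) at 120 h (red, upper row of each pair) and 48 h (blue, lower row) for the 25 DEGs named by the rule. The 5 transcripts at the top were higher at 120 h and the 20 below were lower, and MAPKKK17, JUNGBRUNNEN 1, CML38 and DC2.15 are those whose groups overlap.

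Only 5 named DEGs rose, and they were 2 ACC oxidases, 2 Lea5 transcripts and a superoxide dismutase. ACC oxidase carries out the last step of ethylene synthesis. Transcript f5p60_1401_7689 had 15.3 FPKM in each of the 3 libraries at 120 h, against 7.37, 6.87 and 6.32 FPKM at 48 h, giving a log2 fold change of 1.05 (SE 0.08, adjusted p = 1.3e-06). Transcript f2p51_1479_7181 had 39.1, 52.7 and 51.3 FPKM at 120 h, against 21.8, 21.3 and 19.8 FPKM at 48 h, giving a log2 fold change of 1.14 (SE 0.09, adjusted p = 1.8e-06). Both groups of libraries were tight and did not overlap. Of the 10 transcripts of ethylene synthesis and perception 4 rose at any fold, 2 of them DEGs, and none fell, and in the fit of the 6 libraries alone these 2 remained. The other 2 were ethylene receptor 2 (f5p60_3035_1622) and the kinase CTR1 (f2p47_3001_1662), both brakes on ethylene signalling, with log2 fold changes of 0.23 (adjusted p = 0.049) and 0.27 (adjusted p = 0.03). EIN2, the central relay of the pathway, had values of 0.02 and 0.12 in its transcripts and did not pass. A further transcript, ACC oxidase 1 (f2p53_1118_9998), had 3.84, 5.04 and 5.12 FPKM at 120 h, against 1.78, 2.28 and 9.51 FPKM at 48 h, and its adjusted p of 0.67 became 7.1e-05 without 48 h replicate 3.

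LEA proteins, which protect proteins and membranes when cells dry, changed in both directions. Of 23, 4 rose at any fold, 2 of them DEGs, and 2 fell, with a median of -0.04. Lea5 was the most abundant by far. Its transcript f29p60_719_13862 had 4132, 6273 and 6126 FPKM at 120 h, against 2797, 2802 and 2469 FPKM at 48 h. The groups did not overlap, 120 h replicate 1 was the lowest of its time, and the log2 fold change was 1.01 (SE 0.14, adjusted p = 0.00036). This is close to the fold minimum, and it was 0.91 without 120 h replicate 2, 0.92 without 120 h replicate 3 and 0.95 without 48 h replicate 3. A second Lea5 transcript, f3p60_781_32678, had 2664, 4314 and 4118 FPKM at 120 h, against 2227, 2347 and 1864 FPKM at 48 h, giving a log2 fold change of 0.76 (adjusted p = 0.0034). The short f2p10_527_36146 had 25.4, 54.2 and 42.4 FPKM at 120 h, against 22.2, 19.1 and 11.5 FPKM at 48 h, with a log2 fold change of 1.15 (adjusted p = 0.022), and it lost its call without 120 h replicate 2 or 3 (adjusted p = 0.098 and 0.08) and without 48 h replicate 3 (adjusted p = 0.071). SAG21, a mitochondrial protein of the same family as Lea5, rose in one transcript (f2p60_765_32980, log2 fold change 0.70, adjusted p = 0.0054) and fell in another (f4p60_925_30958, -0.61, adjusted p = 0.043).

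Copper-zinc superoxide dismutase (f2p28_837_12827), which turns superoxide into hydrogen peroxide, had 85.5, 91.8 and 107.5 FPKM at 120 h, against 37.8, 41.7 and 64.4 FPKM at 48 h. No library overlapped, and the log2 fold change was 1.00 (SE 0.20, adjusted p = 0.0055). It was 0.91 without 120 h replicate 3, 0.86 without 48 h replicate 1 and 0.92 without 48 h replicate 2, below the fold minimum but with an adjusted p of 0.031, 0.029 and 0.026. Catalase-2 (f2p60_1814_23063), which removes hydrogen peroxide, averaged 132.5 FPKM at 120 h and 102.6 FPKM at 48 h, giving a log2 fold change of 0.36 (adjusted p = 0.013). These were the 2 that rose among 9 transcripts of catalase, superoxide dismutase and related scavengers, and none fell. Of 18 glutathione S-transferases, detoxifying enzymes, 2 fell at any fold and none was a DEG, no higher a share than the 113 of 697 named transcripts that fell. Here 17 of 18 values were negative, with a median of -0.36, and 4 fell without 48 h replicate 3 and 7 without both libraries that stood apart.

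Transport of nitrogen and ions changed by less than 1 log2 unit where it passed. Ammonium transporter 1 member 2 (f6p60_1644_24184) had 271.0, 365.5 and 363.1 FPKM at 120 h, against 215.3, 208.0 and 190.3 FPKM at 48 h, giving a log2 fold change of 0.69 (adjusted p = 0.00018). It and a second transcript of the same name were the 2 that rose of 12 transcripts of nitrate and ammonium transport and amide synthesis, and asparagine synthetase 1 and amino acid permease 3 were the 2 that fell. Without 48 h replicate 3 none of the 12 fell (adjusted p = 0.081 and 0.059 for these 2) and 5 rose. With all libraries, another transcript named asparagine synthetase 1 (f2p60_2377_3136) did not pass (log2 fold change -0.185, limma adjusted p = 0.56). The 2 transcripts of high-affinity nitrate transporter 2.1 depended on 48 h replicate 3. Transcript f2p60_1894_22575 had 255.4, 438.5 and 439.2 FPKM at 120 h, against 246.6, 245.3 and 70.2 FPKM at 48 h, and f2p37_1996_4289 had 82.3, 129.4 and 130.4 FPKM at 120 h, against 73.9, 78.9 and 20.3 FPKM at 48 h. Their log2 fold changes of 1.17 and 1.16 missed the threshold (adjusted p = 0.051 and 0.055), while without that library they were 0.57 and 0.54 (adjusted p = 0.04 and 0.026). Of 28 transcripts of potassium transport, proton pumps and calcium transport, 3 rose and 1 fell at any fold, and without 48 h replicate 3 it was 2 and 0. Plasma membrane ATPase 4 (f2p9_3515_18575), the proton pump that energises uptake, averaged 381.5 ± 33.9 FPKM at 120 h and 277.4 ± 17.0 FPKM at 48 h (SD, n = 3 each), giving a log2 fold change of 0.46 (adjusted p = 0.00025). Potassium transporter 5 (f2p60_2781_19668) averaged 59.8 FPKM at 120 h and 37.8 FPKM at 48 h, giving a log2 fold change of 0.65 (adjusted p = 0.0018).

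The other lists held few calls and no DEG. Their counts stand beside the 41 that rose and 113 that fell of 697 named transcripts, and the 3.40% and 6.61% of all transcripts. The share of falls among folding proteins of the endoplasmic reticulum was near that of named transcripts. Small heat shock proteins had negative values in all 11 transcripts and 3 that fell at any fold, with a median of -0.79, and 48 h replicate 3 was far above its partners. Their summed level was 198.8, 274.0 and 247.9 FPKM at 120 h, against 268.8, 274.3 and 510.2 FPKM at 48 h, so that the sums of 48 h replicates 1 and 2 lay at the upper end of the 120 h range, and without both libraries that stood apart the median was -0.25. HSP70, HSP90 and DnaJ proteins had 2 that rose and 1 that fell of 22. Folding proteins of the endoplasmic reticulum had 5 that fell of 31, among them calnexin (f2p60_2014_21981, log2 fold change -0.27, adjusted p = 0.01). Very-long-chain fatty acid and wax enzymes had 2 of 13 that fell. Photosystem and chlorophyll-binding transcripts had 2 of 22 that rose, and CONSTANS-like and clock factors 3 of 10, all CONSTANS-like, with log2 fold changes of 0.37 to 0.39. Sulfate assimilation had none of 5. GRAS, MADS-box, TCP and related factors had 2 of 19 that rose, the DELLA protein GAI1 and TCP4. Of 6 low-oxygen transcripts, RAP2-3 rose and alcohol dehydrogenase 1 (f2p60_869_31612) fell, the fall of alcohol dehydrogenase 1 with an adjusted p just under 0.05 that became 0.091 without 48 h replicate 3.

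**Figure D4:**
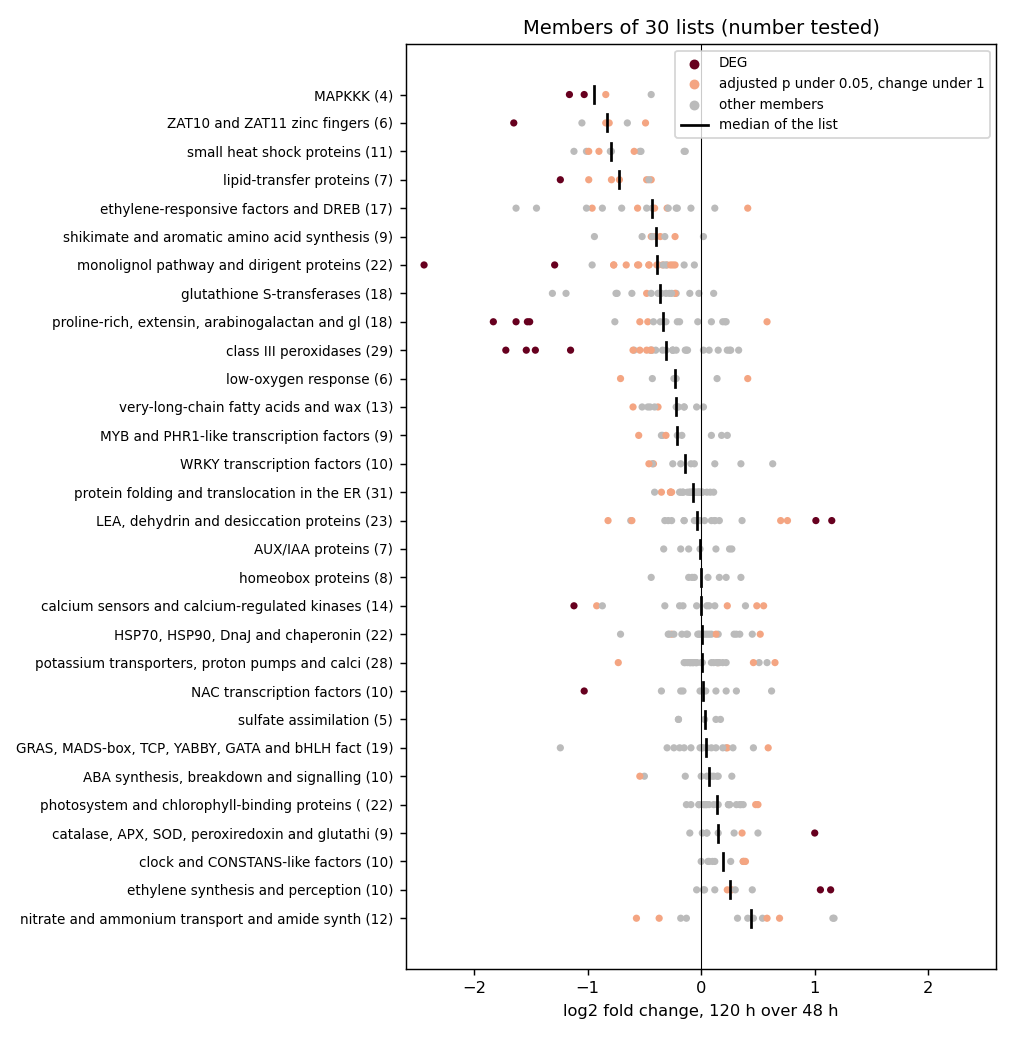
Log2 fold change of 120 h over 48 h for each member of 30 lists (points, with the number tested in brackets) and the list median (black bar). DEGs are dark red, members that passed the test with a change under 1 are orange and the rest grey, and the lists at the top, from MAPKKK to class III peroxidases, have medians of -0.94 to -0.31.

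Of the 12 qRT-PCR transcripts, 11 had values here, and 3 of these were DEGs: peroxidase 4, CML38 and the copper-zinc superoxide dismutase. MAPKKK18 passed below the fold minimum and 7 did not pass. The ID of GSTXC was not among the transcripts used here. RAB18 (f2p60_1369_7946, annotated as protein SRC1), a dehydrin, had 7.71, 17.6 and 20.3 FPKM at 120 h, against 18.5, 18.1 and 6.68 FPKM at 48 h, and a log2 fold change of 0.09 (SE 0.33). LEA29 (f2p37_1282_27056) had 34.9, 46.7 and 42.4 FPKM at 120 h, against 48.9, 51.6 and 30.03 FPKM at 48 h, and a log2 fold change of -0.04 (SE 0.16). In both, 120 h replicate 1 was the lowest library of 120 h and 48 h replicate 3 the lowest of 48 h, and the groups overlapped. NCED3 (f2p21_2499_2742), of abscisic acid synthesis, had 0.71, 1.00 and 1.11 FPKM at 120 h, against 1.08, 0.90 and 0.50 FPKM at 48 h. The annotation names this transcript NCED1. KT2, NCL, CAX7 (annotated as cation/calcium exchanger 1) and DNJ11 had no call either, and of these DNJ11 (f2p60_820_32228), a DnaJ chaperone, averaged 42.1 ± 4.99 FPKM at 120 h and 33.1 ± 1.58 FPKM at 48 h (SD, n = 3 each), giving a log2 fold change of 0.34 (adjusted p = 0.1). For DNJ11 the study's printed fold changes over 0 h are lower at 120 h than at 48 h, the other direction.

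Most transcripts that fell in the step had been raised earlier. The DEGs of each earlier time over 0 h use none of the 120 h and 48 h libraries for their fold changes. The calls are not fully independent, since all times share 1 estimate of the spread. Of the 128 that fell, 85 (66.4%) were higher than 0 h at 6 h, 98 (76.6%) at 12 h and 86 (67.2%) at 24 h. Over all transcripts 845, 692 (5.73%) and 535 (4.43%) were higher than 0 h at these times, and 645 (5.34%), 434 (3.59%) and 219 (1.81%) lower. At 1 or more of these times it was 107 (83.6%), while 1180 of all transcripts (9.77%) were higher than 0 h at 1 or more of them, of which the 107 make up 9.07%. Another 3 had been lower than 0 h and 18 neither. Of the 23 that rose, 9 (39.1%) had been lower than 0 h at 1 or more of the 3 times, where 858 transcripts (7.10%) were, 5 had been higher and 9 neither.

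The means by time show several courses among them. The extensin-related protein f9p60_914_11928 averaged 47.2, 1806, 1312, 1160.0, 384.6 and 133.9 FPKM in the order of the times, with 0 h first and 120 h last, and peroxidase 4 averaged 8.24, 162.6, 180.1, 142.8, 49.1 and 13.7 FPKM. Dirigent protein 23 peaked later, with 4.36, 20.1, 58.2, 86.6, 36.0 and 5.92 FPKM. The 6-phosphogluconolactonase 4 stayed high through 48 h, with 57.4, 96.6, 197.1, 205.1, 186.0 and 77.6 FPKM. Lea5 f29p60_719_13862 ran the other way, with 5451, 1398, 1101, 2514, 2689 and 5510 FPKM, and had its 120 h mean near that of 0 h. The ACC oxidase f2p51_1479_7181 averaged 53.8, 100.6, 64.9, 39.2, 20.96 and 47.7 FPKM, so its lowest level was at 48 h. The superoxide dismutase, with 44.7, 44.9, 50.1, 67.3, 47.9 and 94.9 FPKM, was highest at 120 h. For peroxidase 4 the study's printed fold changes over 0 h are negative at 48 h and 120 h. Its means here lie above that of 0 h at both times, the other direction.

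**Figure D5:**
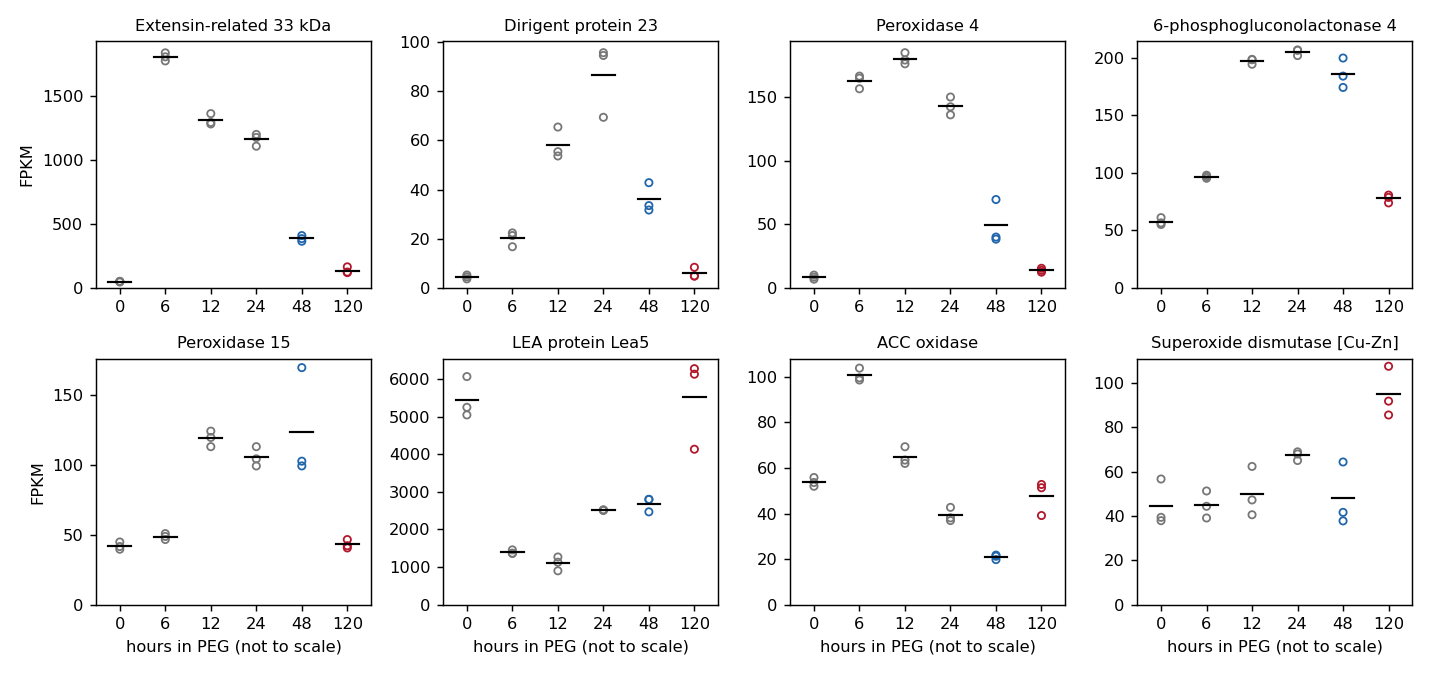
FPKM of each library (circles) and mean (bar) at each of the 6 times, with 48 h in blue and 120 h in red, for 8 DEGs, the times in order and not to scale. The 5 that fell had lower levels at 120 h than at 12, 24 and 48 h, and Lea5, the ACC oxidase and the superoxide dismutase were higher at 120 h than at 48 h.

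The step was also set against the one before it, by testing the change of 120 h over 48 h minus that of 48 h over 24 h. The later step spans more hours than the earlier one, so the changes are compared per step and not per hour. Both changes use the 48 h libraries, so an error there moves them in opposite directions. This difference was significant with at least 1 log2 unit in 194 transcripts (1.61%), positive in 79 (0.654%) and negative in 115 (0.952%). That count of 194 was 406 without 48 h replicate 3, 313 without 120 h replicate 1 and 128 without 48 h replicate 2. With no fold minimum the difference was positive in 359 (2.97%) and negative in 370 (3.06%), 729 (6.03%) in all. The step of 48 h over 24 h had 51 DEGs higher (0.422%) and 168 lower (1.39%), 219 (1.81%) in all, and at any fold 1095 (9.06%) rose and 1353 (11.2%) fell, 2448 (20.3%) in all.

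Some falls were larger in the later and longer step. The 6-phosphogluconolactonase 4 had a log2 fold change of -1.25 in the step from 48 to 120 h and of -0.14 in that from 24 to 48 h, a difference of -1.11 (SE 0.09, adjusted p = 1.2e-05). Peroxidase 15 had -1.46 and 0.19, a difference of -1.64 (adjusted p = 0.0016), and the aspartyl protease had -1.37 and -0.06, a difference of -1.31 (adjusted p = 0.0059). For peroxidase 15 the highest library, 48 h replicate 3, entered both changes. Its later fall was smaller without that library, as given above, and the difference without it is not given here. Cationic peroxidase 1 turned, with -1.54 in the later step and 1.31 in the earlier one (difference -2.85, adjusted p = 0.00016). The ACC oxidases turned upward, with 1.14 after -0.87 in f2p51_1479_7181 (difference 2.01, adjusted p = 9.9e-06) and 1.05 after -0.57 in f5p60_1401_7689 (difference 1.63, adjusted p = 1.9e-05). In other transcripts the later and longer step had a fall of similar size to the earlier one. The extensin-related protein had -1.53 in the later and -1.59 in the earlier step, a difference of 0.06 with an SE of 0.16, and peroxidase 4 had -1.72 and -1.57, a difference of -0.15 with an SE of 0.30. Peroxidase 5 (f4p60_1269_8729) had -1.15 in the later and -3.40 in the earlier step (difference 2.25, adjusted p = 0.0095). In the monolignol list 13 of 22 had fallen and 1 had risen at any fold from 24 to 48 h, with a median of -0.37, and the difference between the steps passed at any fold in 3. In 4 other lists more members fell from 24 to 48 h than later. They were 10 of 18 wall proteins, 7 of 9 shikimate, 10 of 17 ethylene-responsive and DREB and 16 of 31 endoplasmic reticulum transcripts. Fewer fell then than later among class III peroxidases (7 of 29), lipid-transfer proteins (4 of 7) and ZAT factors (1 of 6).

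Most DEGs have no name in the annotation at hand, and short transcripts were noisier. The median replicate SD over 120 h and 48 h was 0.77 for the 676 transcripts under 400 bp, 0.17 for the 3439 from 400 bp to under 1 kb and 0.11 for the 7965 of 1 kb or longer, and 11 of the 151 DEGs were under 400 bp. Among transcripts with no name, at least 400 bp long, averaging at least 5 FPKM at either time and with groups that did not overlap, picked after their values were seen, the largest fall was in f2p60_989_30189, which had 3.38, 15.5 and 14.8 FPKM at 120 h, against 175.9, 167.1 and 99.4 FPKM at 48 h, giving a log2 fold change of -3.78 (SE 0.37, adjusted p = 1.5e-05). Its mean had been 0.267, 77.1, 214.2 and 441.3 FPKM at 0, 6, 12 and 24 h. The next was f2p60_501_36442, with 9.26, 9.94 and 10.1 FPKM at 120 h, against 93.1, 111.9 and 203.0 FPKM at 48 h, giving a log2 fold change of -3.59 (adjusted p = 3.7e-07). The largest rise was in f2p60_1536_24898, with 50.7, 35.4 and 36.99 FPKM at 120 h, against 7.53, 7.21 and 9.57 FPKM at 48 h, giving a log2 fold change of 2.20 (adjusted p = 5.9e-06). It was followed by f2p35_435_37175, with 8.66, 6.79 and 7.01 FPKM at 120 h, against 0.96, 1.76 and 2.27 FPKM at 48 h, giving a log2 fold change of 1.70 (adjusted p = 0.00094).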

How the data were processed

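RNA of the root pools was sequenced as paired-end reads, and the authors mapped the clean reads to the isoforms of their own PacBio sequencing and calculated FPKM, with RSEM 1.2.31 and HTSeq 0.6.0 named in the notes of the submitters. The deposited table holds FPKM of 12994 transcripts in 18 columns with short codes, read as times and replicates from their numbered order. The times were checked on fold changes printed in the supplementary tables, which do not check the replicate digit. For some transcripts named above the printed fold changes differ from those here, some of them in direction. Those tables also hold the authors' p-values. The printed values were used for nothing but that check and the comparisons of single transcripts given above. Names came from them, and 44 of their 1057 IDs have no row in the table.

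log2(FPKM + 1) was computed for 12080 transcripts that reached 1 FPKM in 3 or more libraries. A model of the 6 times over all 18 libraries was fitted with limma 3.58.1 (R 4.3.3), with an intensity trend and robust moderation (12 residual degrees of freedom). The study's own read count test was not run on FPKM. Benjamini-Hochberg adjustment ran over the whole table. p-values measure the spread between pools. The code was tested on simulated data. Tables were made with pandas 2.3.3 in Python 3.11.15.

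The rule for named genes takes named DEGs with at least 5 FPKM at 120 h or 48 h and no overlap, up to 15 each way, up to 4 DEGs per list, and the 12 qRT-PCR transcripts. The step, the lists and the rule were chosen with earlier results of these data known. Alternatives were the pseudocount, filter, scaling, moderation, samples, short transcripts, fold minimum, replicate block and each library left out. Replicate numbers of 120 h and 48 h did not pair.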

Additional observations from a re-analysis of the deposited data

How the results depend on the processing

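With a pseudocount of 5 in place of 1 there were 12 DEGs higher at 120 h, 74 lower and 13 called list members, against 23, 128 and 21. The fit of the 6 libraries alone gave 8, 39 and 6. With no fold minimum there were 411, 798 and 107, and 729 transcripts differed between the steps against 194. Leaving out 1 library at a time gave 14 to 29 DEGs higher, 94 to 195 lower, 13 to 29 called list members and 128 to 406 transcripts that differ between the steps. Leaving out 120 h replicate 1 and 48 h replicate 3 together, chosen after seeing the data, gave 41, 249, 39 and 530. The other alternatives (pseudocount 0.1, both other filters, TPM, median shift, plain eBayes, transcripts under 400 bp left out) kept these counts within 1.5 times. The difference between the steps could not be computed from 6 libraries.

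Same-numbered libraries of 120 h and 48 h did not deviate together (correlations of -0.04, 0.02 and -0.07), so the numbers were not taken as pairs. With the replicate block there were 24 DEGs higher, 116 lower, 19 called list members and 182 transcripts that differ between the steps, within 1.5 times of the counts without it.

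No DEG named by the rule and none of the 4 unnamed transcripts changed sign in any alternative, and 9 of these 29 kept their call in all. Of the 7 qRT-PCR transcripts with values and no call, 4 changed sign without 1 library, and leaving out each in turn gave log2 fold changes of -0.04 to 0.19 for NCED3, -0.37 to 0.06 for CAX7, -0.28 to 0.10 for LEA29 and -0.35 to 0.49 for RAB18. Fragment counts of single libraries were not used here, so no counting error is given for transcripts near 1 FPKM, such as NCED3 and MAPKKK17.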

Other observations

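Among named transcripts outside the lists, picked after their values were seen, several passed the limma test below 1 log2 unit. Cytoplasmic aspartate aminotransferase (f2p60_1666_24049), which links amino acids to organic acids, had 375.8, 396.2 and 396.9 FPKM at 120 h, against 203.2, 204.1 and 291.7 FPKM at 48 h (log2 fold change 0.76, adjusted p = 0.00018). The transcription factor basic leucine zipper 43 (f5p60_870_31556) averaged 129.3 FPKM at 120 h and 76.4 FPKM at 48 h (log2 fold change 0.76, adjusted p = 0.0001). Respiratory burst oxidase homolog protein B (f4p60_3048_1582), of the family that makes superoxide at the plasma membrane, had 5.07, 4.50 and 4.28 FPKM at 120 h, against 7.95, 6.43 and 9.06 FPKM at 48 h (log2 fold change -0.64, adjusted p = 0.0029). In these 3 no library of 120 h lay within the 48 h range.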
